A study of Drosophila melanogaster with 14 samples.

Results

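The core of the NALCN sodium leak channel complex in Drosophila melanogaster is encoded by 3 genes, na (narrow abdomen), unc79 and unc80. The 3 rows of the count table with the FlyBase identifiers of these genes were taken, out of 17807 gene rows. The choice used measured values in part: unc79 was chosen by its large rise in nub1 wing discs, and na and unc80 were taken as its partners in the complex. The contrast of nub1 with wildtype is therefore described for unc79 without a test, and it was tested for na.

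The RNA came from wing imaginal discs (the larval epithelia that form the adult wing and notum) dissected from wandering larvae of the third instar. The wildtype larvae were yw, and the mutant larvae were yw with nub[1], an allele of nubbin, called nub1 here. Both genotypes thus name yw, and they do not state whether the stocks were otherwise matched. Each genotype had 3 libraries, with total counts of 58434785 to 83448836 reads. The series also covers ATAC-seq of both genotypes and ChIP-seq of rn-GFP discs, which were not analysed here. The labels do not state whether replicates are separate sets of animals, and the p-values therefore measure the spread between these libraries only, and that spread may be technical.

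NALCN channels pass a small inward sodium current at rest and so depolarise the resting membrane. The na gene encodes the pore-forming subunit, a protein related to voltage-gated sodium and calcium channels. Unc79 and Unc80 are large auxiliary proteins without channel activity of their own, and in flies each of them is needed for normal levels of the Na protein and for rhythmic locomotor behaviour driven by clock neurons. Mid1, also called Nlf-1, is an endoplasmic reticulum protein that helps the channel reach the cell surface. The complex is studied mostly in neurons.

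The change between the genotypes was estimated for each of the 3 genes and was not compared between them by a test. The auxiliary gene unc79, chosen for its rise, was far higher in nub1 than in wildtype discs. The pore gene na rose from a very low level by a smaller factor, and unc80 was close to the limit of counting in both genotypes. The counting interval of the unc80 ratio (0.674 to 7.45) includes the ratio of na (2.91), so these genes were not shown to differ. Exon lengths were not used here, so levels are compared between genotypes for each gene and not between genes. In bulk discs, a gene read in fewer cells and a gene with less RNA per cell cannot be told apart.

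The auxiliary gene unc79 (FBgn0038693) lies on dm6 chromosome arm 3R, 19230764 to 19246130, with 5 RefSeq transcripts over a span of 15367 bases. Replicates 1 to 3 gave 24, 19 and 31 counts in wildtype, and 805, 983 and 1082 counts in nub1. Scaled for library size by TMM, the levels were 0.390, 0.332 and 0.379 CPM (the count relative to the TMM-scaled library size) in wildtype and 11.1, 12.8 and 12.7 CPM in nub1 libraries. The lowest nub1 library therefore stood far above the highest wildtype library, and the groups did not overlap. The mean level in nub1 discs, 12.2 ± 0.957 CPM, compared with 0.367 ± 0.030 CPM in wildtype (SD, n = 3). The mean was 33.3 times as high in nub1 discs, and the edgeR fit gave a log2 fold change of 5.04 ± 0.11 (SE), which is given as a description since it chose the gene. Likewise as a description only, unc79 ranked 45 among the fitted log2 fold changes of 9186 tested genes.

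Wildtype discs were not empty of unc79 reads. The 74 wildtype counts gave 0.369 CPM over the group, with an exact Poisson 95% interval of 0.290 to 0.463 CPM, and the 2870 nub1 counts gave 12.2 CPM, with an interval of 11.8 to 12.7 CPM; these intervals, like all counting intervals below, cover counting error only. Wildtype libraries showed no variation beyond counting noise, with a chi-square of 0.150 per degree of freedom. The nub1 libraries varied by more than counting noise (5.61 per degree of freedom). Replicate 1 of nub1 was the lowest of its group, and the other nub1 libraries lay close together.

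The pore gene na (FBgn0002917) lies on chromosome X, 14266367 to 14277416, with 2 RefSeq transcripts over a span of 11050 bases. Its counts were 9, 8 and 21 in wildtype and 33, 36 and 60 in nub1 replicates 1 to 3, or 0.146, 0.140 and 0.256 CPM against 0.455, 0.469 and 0.705 CPM. All 3 nub1 libraries lay above all 3 wildtype libraries, as was the case for 29.7% of tested genes, and replicate 3 was the highest library within each genotype. The level rose from 0.181 ± 0.066 CPM to 0.543 ± 0.141 CPM (SD, n = 3), a log2 fold change of 1.54 ± 0.31 (SE; edgeR adjusted p = 0.00362). Among all tested genes, 24.4% were called higher and 23.9% lower in nub1 discs at this threshold (adjusted p under 0.05), so a call as such was common. The rise of na ranked 291 among the 9186 tested genes. All 6 libraries were above the filter on low counts (0.135 CPM) for na, so the gene did not enter the test through the nub1 libraries alone. The call held without each library in turn, with adjusted p from 0.00299 to 0.0190 and log2 fold changes from 1.29 to 1.92.

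The auxiliary gene unc80 (FBgn0039536) lies on chromosome arm 3R, 27662439 to 27677099, with 5 RefSeq transcripts over a span of 14661 bases. Its counts were 0, 3 and 2 in wildtype and 4, 2 and 6 in nub1 replicates 1 to 3, where 1 count is worth 0.0118 to 0.0175 CPM. The groups overlapped, and no library reached the filter on low counts, so unc80 was not tested with the other genes. Over each group the level was 0.0249 CPM in wildtype (exact Poisson 95% interval 0.00809 to 0.0581) and 0.0512 CPM in nub1 discs (0.0265 to 0.0895). The ratio of nub1 to wildtype was 2.06, with an exact 95% counting interval of 0.674 to 7.45, and moved to a log2 ratio of 1.88 from 1.04 without wildtype replicate 2. An exact permutation test of the 6 libraries gave p = 0.2 (two-sided), where 3 against 3 libraries cannot go below 0.1. No difference in unc80 was detected, and the counting interval includes both a fall and a rise.

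The chaperone gene Mid1 (FBgn0053988), on chromosome arm 2R, was measured in the same libraries. It had 27, 21 and 31 counts in wildtype and 20, 31 and 34 in nub1 replicates 1 to 3, and the groups overlapped. Mean levels were 0.360 ± 0.073 CPM (nub1) and 0.395 ± 0.038 CPM (wildtype; SD, n = 3), and the log2 fold change of -0.12 ± 0.23 (SE) was not called (adjusted p = 0.679 by edgeR). The counting interval of its ratio ran from 0.670 to 1.27 around 0.921.

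The counts of unc79 can also be set against those of its partners, as a description only, since the choice of unc79 by its rise fixed the direction. For every na count there were 2.67, 2.38 and 1.48 unc79 counts in the wildtype libraries in replicate order, and 24.4, 27.3 and 18.0 in those of nub1. The share of unc79 in the summed counts of the 3 genes was 57.4% to 72.7% in wildtype and 94.3% to 96.3% in nub1 libraries. These ratios rest on raw counts of genes of different length, so they do not give the proportion of transcripts.

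**Figure D1:**
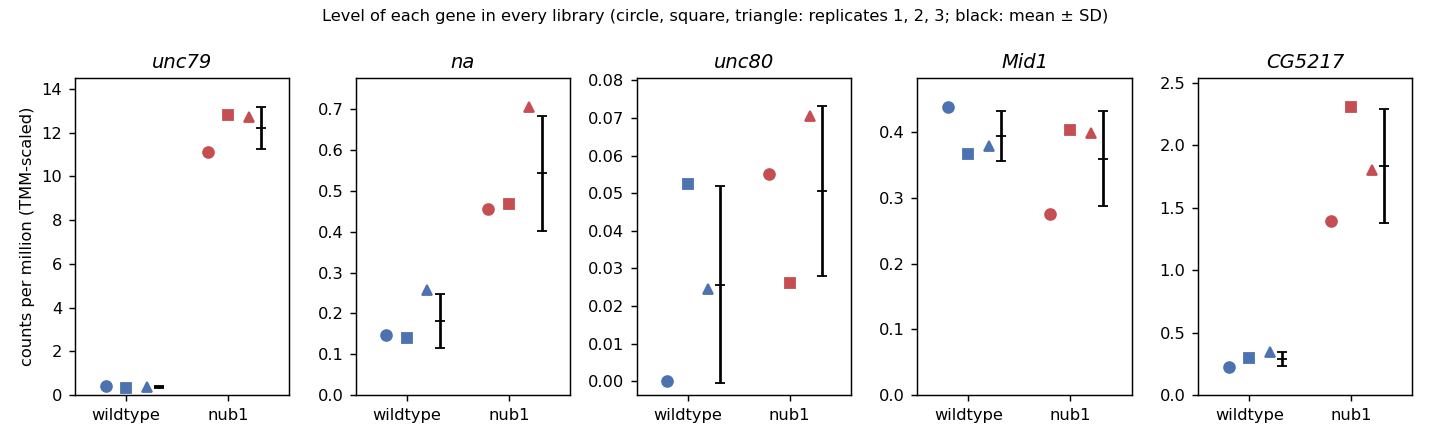
TMM-scaled CPM of unc79, na, unc80, Mid1 and the unc79 neighbour CG5217 in each of the 6 libraries, with wildtype in blue, nub1 in red, a symbol per replicate number, and the mean ± SD of 3 libraries in black. Each panel has its own linear axis; the 2 groups are apart for unc79, na and CG5217 and overlap for unc80 and Mid1.

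The mutated gene was checked in the same libraries. The POU domain gene nub fell from 329 ± 12.2 to 10.9 ± 3.09 CPM (SD, n = 3; edgeR adjusted p = 0.000158), and its neighbouring paralog pdm2 was at 0.0823 to 0.156 CPM in nub1 against 56.6 to 57.4 CPM in wildtype libraries. Replicates differed from each other by more than sampling noise, with a chi-square per degree of freedom of 15.3 to 17.4 between wildtype libraries and 4.09 between nub1 replicates 1 and 2. Replicate 3 of nub1 stood apart from the other nub1 libraries (31.7 and 24.5). In a fit chosen after the data were seen, without both libraries numbered 3, the log2 fold change was 5.04 for unc79 and 1.68 for na (edgeR adjusted p = 0.00321), 1959 genes were called higher and 1951 lower, against 2239 and 2195 with all libraries.

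**Figure D2:**
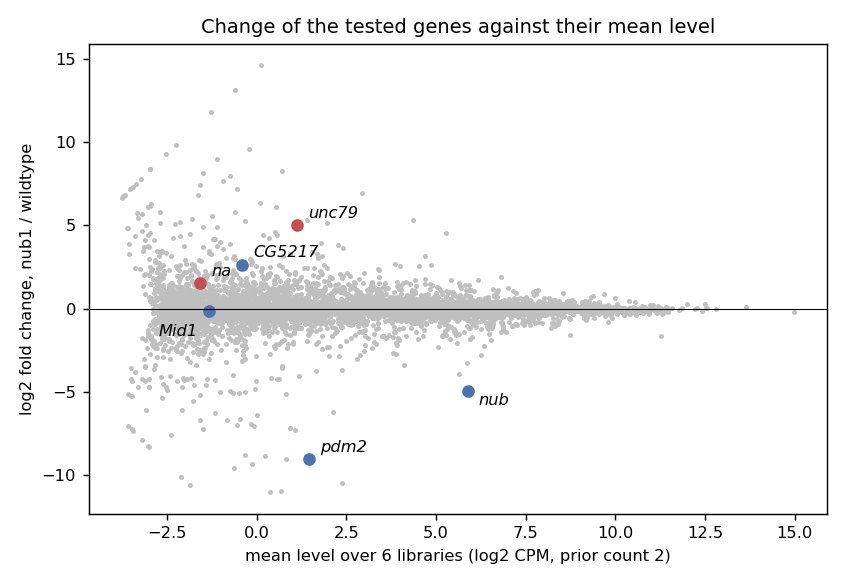
Log2 fold change of nub1 over wildtype against the mean log2 CPM over the 6 libraries, for the 9186 tested genes (grey), with unc79 and na in red and Mid1, CG5217, nub and pdm2 in blue. The fitted values are 5.04 for unc79, 1.54 for na and -0.12 for Mid1; unc80 was too low to test and is not drawn.

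The genes next to each member were examined next, without regard to their values: any overlapping gene and the 3 nearest on each side. At its lower-coordinate end unc79 shares 69 bases with Polr2M, an RNA polymerase II accessory subunit gene. Polr2M stood at 24.3 ± 1.12 CPM (wildtype) and 25.5 ± 0.383 CPM (nub1; SD, n = 3), which was no call (log2 fold change 0.07 ± 0.04; edgeR adjusted p = 0.195; called without wildtype replicate 2, adjusted p = 0.0480). Reads in the shared bases cannot be assigned to one of the genes, since no source used here states whether the counting took strand into account. The other genes on that side were CG5250 and CG11703, with 1 and 0 counts over all 6 libraries, and vib, a phosphatidylinositol transfer protein gene. The log2 fold change of vib was -0.07 ± 0.03 (edgeR adjusted p = 0.0391), a call lost with library sizes only, upper quartile scaling, no filter and DESeq2, and without each library other than nub1 replicate 3 (adjusted p = 0.0571 to 0.237).

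On the other side, 921 bases beyond the end of unc79, CG5217 was also higher in nub1 discs. This protein-coding gene (3R, 19247052 to 19248136) had 14, 17 and 28 counts in wildtype and 101, 177 and 153 in nub1 replicates 1 to 3. It rose from 0.289 ± 0.058 to 1.83 ± 0.457 CPM (SD, n = 3), a log2 fold change of 2.64 ± 0.25 (SE; edgeR adjusted p = 4.41e-05), and its groups did not overlap. The next gene, CG14280, 10646 bases away, went the other way, with 17, 21 and 12 counts in wildtype and 6, 4 and 1 in nub1 libraries (log2 fold change -2.39 ± 0.57; edgeR adjusted p = 0.00849). All nub1 libraries of CG14280 lay under the filter on low counts, so CG14280 entered the test through the wildtype libraries alone. The third gene, lncRNA:CR44173, had 6 to 17 counts per library and was not tested. Within 100 kb of unc79 there were 30 annotated genes, of which 16 were tested, 6 called higher and 5 lower, beside 24.4% higher and 23.9% lower over all tested genes. Their median log2 fold change was -0.02 against -0.0030 for all tested genes. Of the genes at either end of unc79, CG5217 was thus called higher and Polr2M was not.

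The surroundings of the other members were examined in the same way. No annotated gene overlaps unc80. Of its neighbours, Mlc1, a myosin light chain gene of muscle 2261 bases away, rose from 0.800 to 2.37 CPM (1.55 ± 0.21 on the log2 scale; edgeR adjusted p = 0.000362), and Hsdl2, a dehydrogenase-like gene 422 bases away on the other side, fell from 130 to 100 CPM (-0.37 ± 0.04; adjusted p = 0.000138). The microtubule-binding protein gene tau, CG12883 and the Polycomb group gene Sce did not pass the test (log2 fold changes 0.50, 0.14 and 0.02), and RpS10a was not tested. Within 100 kb of unc80, 2 of 19 tested genes were called higher and 5 lower. No annotated gene overlaps na either, and none of its 6 nearest genes was tested. Tat, a tyrosine aminotransferase gene, had 1 to 6 counts per library and the mucin gene Muc12Ea 0 to 4, CG9400 had 1 count in each of 2 libraries, and CG46317, CG13404 and lncRNA:CR44963 had 0. Within 100 kb of na, 4 of 13 tested genes were called higher and 5 lower, and both windows are to be read against the same shares of 24.4% and 23.9%.

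**Figure D3:**
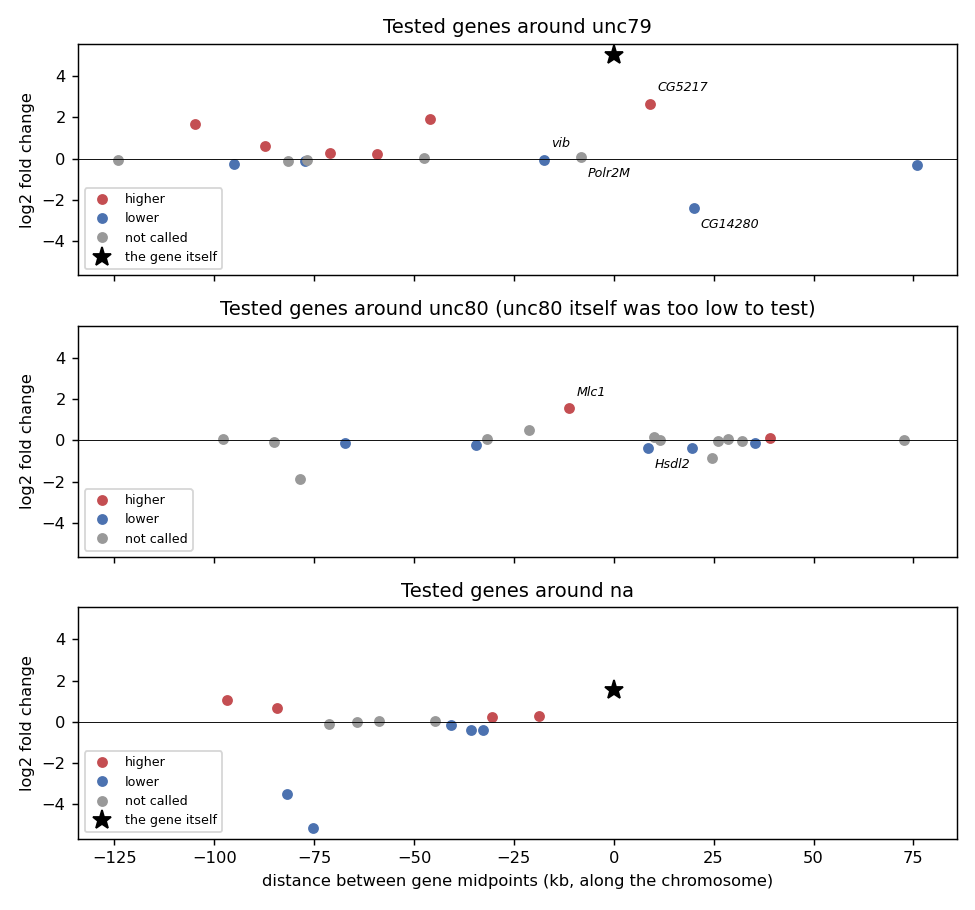
Log2 fold change of nub1 over wildtype for the tested genes within 100 kb of unc79, unc80 and na, against the distance of gene midpoints in kb, in red where called higher, blue where called lower and grey where not called, with the member itself as a star. CG5217 (2.64) lies next to unc79 (5.04), while Polr2M (0.07) on the other side lies near 0.

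The genes most like each tested member were found by the root mean square difference of log2 CPM (prior count 2), centred on each gene's mean, over the 6 libraries. Of the 5 nearest to unc79, 4 are given here: miple1, a midkine family growth factor gene (0.21), the pseudogene CR31054 (0.23), CG13043 (0.30) and Hsp70Bc, a heat shock gene (0.31). Wildtype and nub1 means were 3.22 and 128 CPM for miple1 and 0.0748 and 4.28 CPM for Hsp70Bc, whose near-identical copies make its own value uncertain. CR31054 and CG13043 had no wildtype count, so their wildtype values, and with them their distances from unc79, depend on the prior count. Taking 3 counts in the whole wildtype group as the floor, the nub1 level was 71.4 times the floor for CR31054 and 38.5 times for CG13043. Counting error of the nub1 counts is not included. All wildtype libraries of CR31054, CG13043 and Hsp70Bc (0.0812, 0.0700 and 0.0733 CPM) lay under the filter on low counts. These genes thus entered through the nub1 libraries alone. They were also picked for their likeness to unc79, so their large rises are a description only.

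For na the nearest genes were CG15629 (0.094), CG11353 (0.10), the nuclear receptor gene ftz-f1 (0.11), the extended synaptotagmin gene Esyt2 (0.11) and mol, a dual oxidase maturation factor gene (0.13). Their means were 2.86 to 3.03 times as high in nub1 as in wildtype discs, beside 3.00 for na. The likeness follows the step between genotypes above all, and for na also the high replicate 3: Esyt2 was at 23.4 CPM and ftz-f1 at 40.9 CPM in nub1 replicate 3, above their nub1 means of 18.7 and 33.7 CPM.

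**Figure D4:**
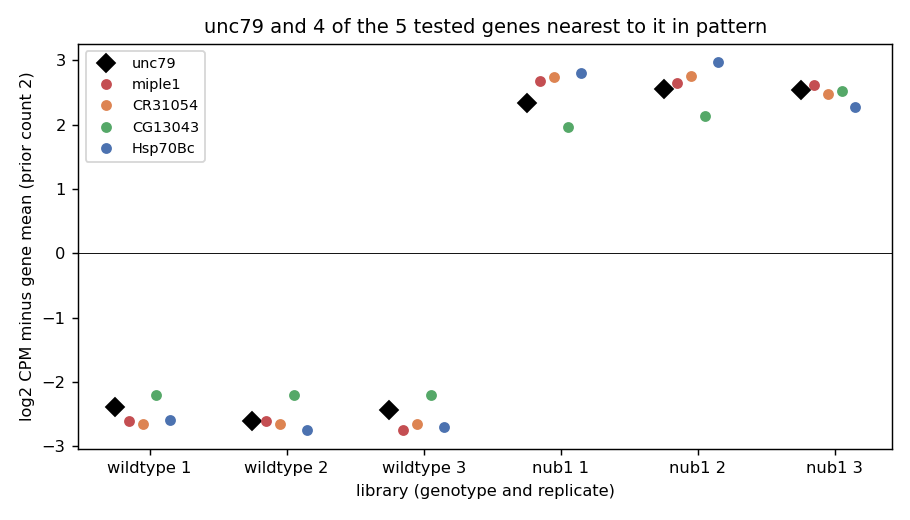
Log2 CPM minus the mean of each gene (prior count 2) in each of the 6 libraries, for unc79 (black diamonds) and 4 of the 5 tested genes with the smallest root mean square difference from it. All 5 genes drawn lie below 0 in the wildtype libraries and above 0 in the nub1 libraries.

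Other cation channels were then read from fixed lists, to set the complex beside its relatives. Of 13 genes of voltage-gated sodium and calcium channels and their auxiliary subunits, 12 were in the table and 6 were tested, of which 4 rose and none fell, where 24.4% of all tested genes were called higher and 23.9% lower. NaCP60E, a sodium channel family gene, rose from 34.2 to 49.6 CPM (0.54 ± 0.04 on the log2 scale; edgeR adjusted p = 7.51e-06). The auxiliary alpha2delta genes stol and stj rose from 0.0657 to 0.222 CPM (1.75 ± 0.34; adjusted p = 0.00282) and from 0.409 to 0.828 CPM (1.00 ± 0.27; adjusted p = 0.0149). All 3 wildtype libraries of stol lay under the filter on low counts (0.135 CPM), so stol entered the test through the nub1 libraries alone. The call count and the median of this list include it. With either wildtype replicate 2 or nub1 replicate 2 left out, stj was not called (edgeR adjusted p = 0.0524 and 0.0591). The presynaptic calcium channel gene cac, at 326, 93 and 156 counts in wildtype and 685, 715 and 1056 in nub1 libraries, had a log2 fold change of 1.83 ± 0.50 (adjusted p = 0.0374). Its call was lost without each library other than wildtype replicate 1 (adjusted p = 0.0749 to 0.110), with no filter (0.0650), and with the replicate block (0.101), and its log2 fold change was 2.55 without wildtype replicate 1. The calcium channel gene Ca-alpha1D and the sodium channel auxiliary gene tipE did not pass the test (0.98 and 0.98). The main neuronal sodium channel gene para was not tested, with 8, 7 and 15 counts in wildtype and 3, 7 and 5 in nub1 libraries. The other members too low to test went both ways in summed wildtype and nub1 counts. Ca-alpha1T had 9 and 4, Teh1 2 and 3, Teh2 9 and 11, Teh3 3 and 4, and Teh4 1 and 4. The median log2 fold change of the 6 tested members was 0.99, beside -0.0030 for all tested genes. It includes Ca-alpha1D (0.244, 0.0874 and 0.110 CPM in wildtype) and tipE (0.0649, 0.0350 and 0.171 CPM). Each reached the filter in a single wildtype library, so both needed nub1 libraries to be tested. The median of the tested members therefore does not stand for the whole list. In other fits, 2 members were called higher without wildtype replicate 2, without nub1 replicate 2, or with a filter of at least 1 CPM. Without both libraries numbered 3, the number was 3.

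Potassium and HCN channel genes, whose currents mostly set or restore the resting potential, gave a single call. Of 22 listed genes 10 were tested, 1 rose and none fell (all tested genes: 24.4% and 23.9%), and their median log2 fold change was 0.13. The call was that of Ih, the HCN channel gene, which rose from 0.183 to 0.370 CPM (1.03 ± 0.34; edgeR adjusted p = 0.0331). The Ih groups overlapped, and the call was lost when wildtype replicate 2 or 3, or nub1 replicate 1 or 3, was left out (adjusted p = 0.0791 to 0.117), and with DESeq2 (0.0866). The ERG-type gene sei, with means of 28.0 CPM (wildtype) and 28.9 CPM (nub1), did not pass the test (adjusted p = 0.399). The genes of the potassium leak channels Ork1, Task6 and Task7 had 0 to 3 counts per library and were not tested, and sand (0.03 ± 0.49) did not pass the test.

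For cation pumps and transporters, 3 of 9 tested genes rose and 3 fell, all by small amounts, which is near the shares over all tested genes (24.4% higher, 23.9% lower). The sodium-potassium ATPase alpha subunit gene Atpalpha fell from 853 to 776 CPM (-0.14 ± 0.03 on the log2 scale; edgeR adjusted p = 0.00638) and the beta subunit gene nrv1 from 106 to 90.7 CPM (-0.23 ± 0.05). Another beta subunit gene, nrv2, rose from 217 to 278 CPM (0.36 ± 0.04; adjusted p = 0.000132), and NKAIN, encoding a protein that binds this pump, fell (-0.18 ± 0.04). The median was 0.10; 1 gene rose without nub1 replicate 2, and 5 rose without nub1 replicate 3, with library sizes only or with upper quartile scaling. Of the circadian clock genes, the setting in which the complex is best known in flies, 0 of 6 tested genes were called in either direction by edgeR, DESeq2 or limma-voom, and 1 of them, cyc, had an unadjusted edgeR p under 0.05 (0.0248). The most abundant were dco (255 and 249 CPM; log2 fold change -0.03 ± 0.02) and cwo (95.9 and 97.9 CPM; 0.03 ± 0.03). In this list 1 gene was called higher when any library except nub1 replicate 3 was left out, and 2 with no filter. Without nub1 replicate 1, without both libraries numbered 3 and with the replicate block, 1 gene was called lower. The filter was set anew in each fit, so the genes tested there can differ from the 6 above.

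**Figure D5:**
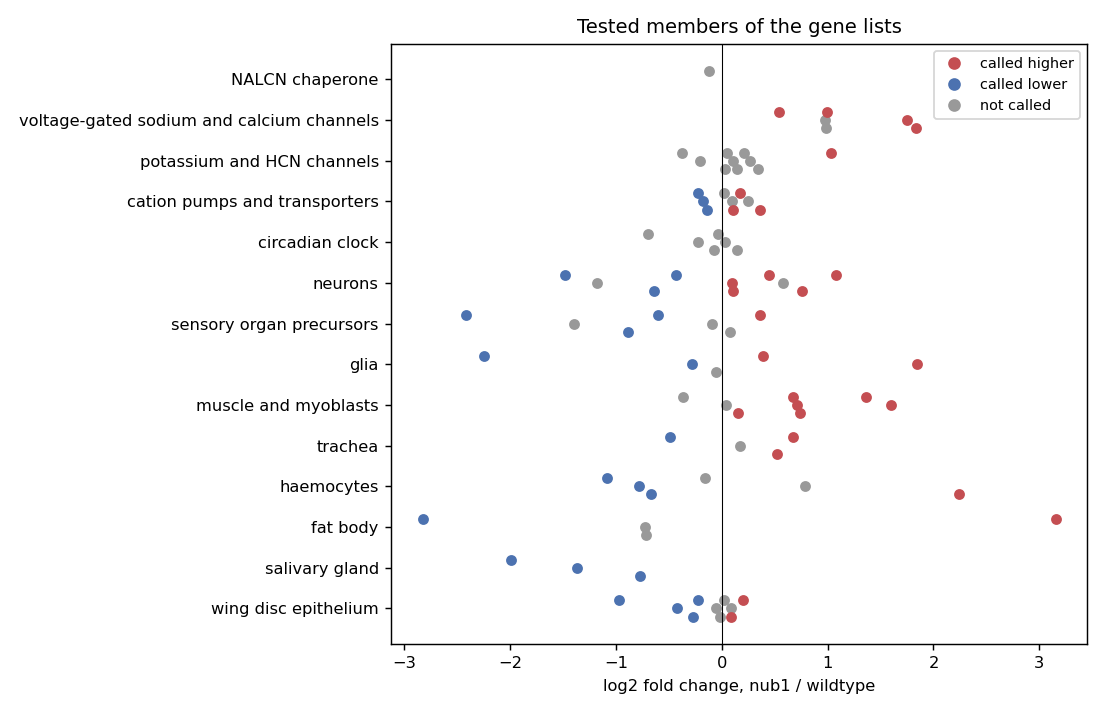
Log2 fold change of nub1 over wildtype for the tested members of each gene list, 1 point per gene, in red where called higher, blue where called lower and grey where not called. Points are spread vertically within a list for legibility. The 6 tested voltage-gated sodium and calcium channel genes lie at 0.54 or more. Of these, stol, Ca-alpha1D and tipE passed the filter on low counts only with the help of nub1 libraries.

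Markers of neurons, where the complex is mostly studied, were present at uneven levels and moved in both directions. Of 17 listed genes 10 were tested, 5 rose and 3 fell (all tested genes: 24.4% and 23.9%), and the median log2 fold change was 0.10. Their summed level was 507 to 574 CPM in wildtype and 647 to 709.6 CPM in nub1 libraries, most of it from unc-13 (371 and 506 CPM). The synaptotagmin gene Syt1 rose from 0.578 to 1.23 CPM (1.08 ± 0.16; edgeR adjusted p = 0.000731) and Snap25 from 0.996 to 1.69 CPM (0.75 ± 0.15), whereas the active zone gene brp fell from 0.233 to 0.0811 CPM (-1.49 ± 0.32). The pan-neuronal gene elav was at 39.1 and 42.1 CPM (0.11 ± 0.04; adjusted p = 0.0471). The 7 members too low to test went both ways in summed counts of wildtype and nub1 libraries: VAChT had 3 and 0, Gad1 2 and 0, Rdl 5 and 0, ChAT 15 and 8, VGlut 3 and 12, nSyb 13 and 25, and cpx 6 and 10. All 3 nub1 libraries of brp lay under the filter on low counts, so brp entered the test through the wildtype libraries alone. With wildtype replicate 2, nub1 replicate 1 or nub1 replicate 2 left out, 3 of the neuronal genes rose. The part of neuronal cells in the level of unc79 was not tested.

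The counts for other cell types are likewise to be read against 24.4% of all tested genes called higher and 23.9% lower. Among sensory organ precursor genes 1 of 7 tested genes rose and 3 fell (summed level 89.1 to 95.8 CPM in wildtype and 81.9 to 90.2 CPM in nub1 libraries), and 2 rose without nub1 replicate 3; sens fell by 2.42 ± 0.20 on the log2 scale. Of 5 glial genes 2 rose and 2 fell (392 to 422 and 331 to 373 CPM). Of these, wrapper was at 1.84 ± 0.17 and repo, the glial identity gene, at -2.25 ± 0.47. All 3 nub1 libraries of repo lay under the filter on low counts, so repo entered the test through the wildtype libraries alone. Of 8 muscle and myoblast genes 6 rose and none fell (182 to 197 and 213 to 236 CPM), with Mlc2 at 1.36 ± 0.07, and of 4 tracheal genes 2 rose and 1 fell (840.1 to 891 and 1222 to 1283 CPM). Of 6 haemocyte genes 1 rose and 3 fell (39.8 to 75.0 and 62.7 to 67.2 CPM); 2 rose without wildtype replicate 1 or 2, and 1 fell when any nub1 library was left out. Of 4 fat body genes 1 rose and 1 fell (14.9 to 42.9 and 14.3 to 16.7 CPM), with 3 falling without wildtype replicate 3 and none without nub1 replicate 1 or 3, and all 3 salivary gland genes fell (4.73 to 5.81 and 1.48 to 2.10 CPM). The groups of Sgs3, 1 of those 3, overlapped, and its call was lost with limma-voom (adjusted p = 0.0583) and with any library except wildtype replicate 3 or nub1 replicate 2 left out (0.0801 to 0.156 by edgeR). The wing disc genes were present in every library, at a summed 3592 to 3755 CPM in wildtype and 3486 to 3729 CPM in nub1; 2 of 10 rose and 4 fell, and 1 rose when wildtype replicate 2, wildtype replicate 3 or nub1 replicate 1 was left out. The part of these cell types in the levels of unc79 and na was not tested.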

How the data were processed

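The deposited table holds raw read counts per gene for 6 RNA libraries, not normalized. Per the submitters' processing notes, the tools were HISAT2, featureCounts, bcl2fastq, deepTools and Bowtie2, their roles and versions unstated, and the build was dm6. No source used here gives the strand setting, the treatment of multi-mapping reads or the annotation release. A symbol was found for 17710 of 17807 IDs; the 97 left over held 0.687% of counts. Positions are from RefSeq Release 6, the assembly of dm6.

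All genes passing filterByExpr (9186) were fitted with edgeR 4.0.16 (TMM, glmQLFit and glmQLFTest, robust, genotype only) and adjusted by Benjamini-Hochberg over all of them. The SE is the log2 fold change divided by the square root of F. Alternatives used DESeq2 1.42.0 and limma 3.58.1 in R 4.3.3. In simulated counts of this comparison, over 9161 genes, 35 of 50 genes changed 1.2-fold and 50 of 50 changed 1.5-fold were called. The simulation gave every gene the same dispersion, changed only genes above a minimum level and had no library that stood apart. Its numbers therefore do not give the chance of a call in the real libraries. This holds above all for genes with few counts, such as na, unc80, Mid1 and many channel genes. The SE of the log2 fold change was 0.23 for Mid1 and 0.31 for na. The absence of a call for such a gene therefore does not exclude a change of these sizes.

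The members and lists were chosen with earlier results of these data known. The genes named are the members, nub and pdm2, adjacent genes, 5 nearest patterns per tested member (1 of those of unc79 is not reported here) and, per list, up to 4 called members with the smallest adjusted p, or else the 2 most abundant. Other list genes were named after their values were seen. Ca-beta was not matched, and CG4587 and stol were 1 gene.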

Additional observations from a re-analysis of the deposited data

How the results depend on the processing

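Under the 15 alternatives (other scalings, filters and tests, the replicate block, each library left out and, added after seeing the data, both libraries numbered 3 left out) the log2 fold change of unc79 ranged from 4.99 to 5.11. That of na ranged from 1.29 to 1.92 with edgeR, DESeq2 or limma adjusted p of at most 0.0190 under the 14 that tested it; with at least 1 CPM in at least 3 libraries it was not tested. The log2 ratio of unc80 ranged from 0.51 to 1.88 with 1 library left out, and without the filter its edgeR log2 fold change was 0.99 (adjusted p = 0.422); the cause of the move was not tested, beyond that 3 of its 5 wildtype counts lay in the library left out at 1.88. Genes called higher numbered 1827 to 2675 and lower 1726 to 2437. With library sizes only they were 2675 and 1815. The log2 fold change of Mid1 ranged from -0.21 to 0.028 with 1 library left out, and that of Sce was -0.0045 without both libraries numbered 3; neither was called. Same-numbered libraries of the 2 genotypes had correlations of their deviations of 0.043, 0.035 and 0.25, and wildtype replicates 1 and 2 did not correlate best with their own number, so the numbers were not taken as pairs. With the replicate block, 2451 genes were called higher and 2437 lower, and na was at 1.57 (adjusted p = 0.000977). The planned order of the members by level per kilobase was not run, since the reference used here gave no exon lengths. Precision is limited by depth for unc80, at 0 to 6 counts per library, and for na in wildtype, at 8 to 21.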

Other observations

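Some clock genes below the filter on low counts were chosen after their values were seen. The clock gene tim had 0, 0 and 1 counts in wildtype and 14, 10 and 12 in nub1 replicates 1 to 3. Its ratio of nub1 to wildtype was 30.8, with an exact 95% counting interval of 5.19 to 1251. The circadian photoreceptor gene cry had 0, 2 and 0 counts in wildtype and 5, 6 and 6 in nub1 libraries, a ratio of 7.28 with a counting interval of 1.73 to 65.0. For both, all 3 nub1 libraries lay above all 3 wildtype libraries. That was the case for 29.7% of tested genes, but tim and cry were not among these. The share among genes with so few counts was not computed. Of the other clock genes below the filter, Clk had 3 and 8 summed counts in wildtype and nub1 libraries, also without overlap. Pdf had 0 and 2, and its groups overlapped. In the edgeR fit without a filter, tim had a log2 fold change of 4.55 ± 0.80 (SE) and cry of 2.66 ± 0.92. These 2 values, and the ratios and counting intervals above, are a description, since the genes were chosen after their values were seen. Neither tim nor cry exceeded 0.193 CPM in any library. The midpoint of cry lies 24.6 kb from that of unc79, on the side of Polr2M.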
